A study of Homo sapiens with 20 samples.

Results

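The transcripts of 40 cell cycle and proliferation genes were followed in human plasma cell and B-cell lines that had become resistant to proteasome inhibitors, and in the sensitive lines they came from. The 40 genes are a named list of regulators and enzymes that act from the G1/S transition to mitotic exit, matched by symbol to 40 of the 18305 genes in the expression table, by a rule that uses no measured value, although the list was drawn up with earlier results of these data known. All 40 passed the filter on low values (1 FPKM or more on average in any group), which left 13089 genes to test. By role the members comprised 6 genes of the G1/S switch, 8 of replication licensing, 5 of DNA synthesis and nucleotide supply, 8 of G2 and mitotic entry, 11 of chromosome segregation and mitotic exit, and the proliferation marker MKI67 with the topoisomerase TOP2A.

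RNA was measured in 20 libraries, in 10 groups of 2 biological replicates, as the study's methods describe them. Wild-type (WT) cells were from AMO1, L363 and RPMI-8226, which are myeloma lines, and from ARH-77, a B-lymphoblastoid line. Bortezomib-resistant (BtzR) cells of all 4 lines were kept in 90 nM bortezomib, a reversible boronate inhibitor of the proteasome, and cells resistant to carfilzomib (CfzR), from AMO1 and L363, were kept in 90 nM carfilzomib, an irreversible epoxyketone inhibitor. All groups shared the base medium. The labels name 1 resistant line for each parent and drug, and its cells were grown with the drug that the WT cells did not get, so the evolved state and the drug's own presence cannot be told apart.

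In the cell cycle, E2F factors and cyclin E with CDK2 switch on the genes of S phase, CDC6 and CDT1 load the MCM2-7 helicase onto origins, and cyclin B with CDK1 then drives entry into mitosis. At its end the anaphase-promoting complex (APC/C), with its activator CDC20 and its ubiquitin-conjugating enzyme UBE2C, marks cyclin B and other substrates for the proteasome, the machine that bortezomib and carfilzomib inhibit. Transcripts of licensing genes rise around G1/S and those of mitotic genes in G2, through E2F sites and through CHR elements with CCAAT boxes respectively. Myeloma is a tumor of plasma cells, a cell type that normally has left the cycle.

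The values are FPKM, fragment counts scaled by transcript length and library size, and no read counts were used, so the depth of the libraries is unknown. The listed genes summed to 457317 to 494850 FPKM in a library, 10455 to 11023 genes reached 1 FPKM, and the 40 members held 0.440% to 0.674% of the summed FPKM. Replicates correlated across tested genes with Pearson's r of 0.986 in ARH-77 WT, the lowest, to 0.998, and the ARH-77 WT pair had the widest median gap between replicates, 0.21 on the log2 scale. The summed level of 7 plasma cell markers was 849 to 4163 FPKM in the myeloma libraries and 294 to 336 in ARH-77, and that of 6 B-cell markers was 1.1 to 14.1 and 475 to 704, respectively. Single markers in AMO1 and RPMI-8226 did not all follow these sums. XBP1 had 63.1 to 78.3 FPKM in AMO1 WT and BtzR and 74.3 to 102 in ARH-77. IRF4 had 106 and 131 in AMO1 BtzR and 87.2 to 109 in ARH-77. SDC1, TNFRSF17, PRDM1, SLAMF7 and MZB1 were higher in AMO1 WT and BtzR than in ARH-77. SLAMF7 had 0.270 to 0.820 FPKM in RPMI-8226 and 20.2 to 32.1 in ARH-77. IRF4 had 60.7 and 66.1 in RPMI-8226 WT and 109 and 106 in ARH-77 WT. TNFRSF17 had 7.86 and 4.93 in RPMI-8226 BtzR and 18.4 to 21.3 in ARH-77. The B-cell marker CD72 had 3.73 to 14.0 in RPMI-8226 and 3.54 to 6.23 in ARH-77. Lists for T cells, myeloid cells, erythroid cells and fibroblasts summed to at most 12.8, 9.23, 2.36 and 1.71 FPKM in any library. The 2 libraries labelled AMO1 CfzR stood apart from their label, since they correlated at 0.986 to 0.992 with the 6 L363 libraries and at 0.878 to 0.883 with the other 4 AMO1 libraries. They are therefore called the libraries labelled AMO1 CfzR, and they are compared with both possible parents. In such bulk RNA, fewer cells in a phase and less RNA of a gene in each cell cannot be told apart.

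The members' upstream sequences are shown for genes whose windows carry matches to elements of the S phase and mitotic programs and no annotated exon. RefSeq promoter windows (GRCh38.p14, 250 bases before each start and 50 after) were found for 33 of the 40 members, all but MCM5, BIRC5, CCNE2, MCM4, AURKA, CDK2 and UBE2C. Each line below gives the 120 bases before the start, 5′ to 3′ on the gene's strand, with matches on either strand in capitals. The motifs searched were E2F (TTTCCCGC, TTTGCCGC, TTTCGCGC or TTTGGCGC), CHR (TTTGAA or TTCGAA) and CCAAT, and the capitals of 2 motifs can run together where these overlap.
MCM6, chr2:135876444-135876563, minus strand: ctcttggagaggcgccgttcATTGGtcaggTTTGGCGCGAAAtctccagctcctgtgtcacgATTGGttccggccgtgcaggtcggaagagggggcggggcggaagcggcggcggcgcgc
CDC25A, chr3:48188418-48188537, minus strand: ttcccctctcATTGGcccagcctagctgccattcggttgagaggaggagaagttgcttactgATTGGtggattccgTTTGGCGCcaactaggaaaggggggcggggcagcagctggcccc
E2F2, chr1:23531234-23531353, minus strand: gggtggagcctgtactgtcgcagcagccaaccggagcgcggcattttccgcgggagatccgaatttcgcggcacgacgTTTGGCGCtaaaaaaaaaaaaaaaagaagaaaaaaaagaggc
KIF11, chr10:92593010-92593129, plus strand: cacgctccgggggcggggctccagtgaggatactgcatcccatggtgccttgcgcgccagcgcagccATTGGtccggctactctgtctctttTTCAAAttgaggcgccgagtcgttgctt
MKI67, chr10:128126424-128126543, minus strand: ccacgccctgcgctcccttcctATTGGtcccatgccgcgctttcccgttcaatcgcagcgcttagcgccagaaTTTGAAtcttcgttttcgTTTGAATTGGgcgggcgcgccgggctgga
CENPF, chr1:214603075-214603194, plus strand: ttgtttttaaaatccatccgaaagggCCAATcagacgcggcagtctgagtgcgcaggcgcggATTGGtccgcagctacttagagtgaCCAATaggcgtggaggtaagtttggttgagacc

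Over the whole windows, an E2F match was present in 13 of the 33 members (39.4%) and in 3.99% of the 27305 genes with a window. The matches lay in all 6 licensing members that had a window (CDC6, CDT1, MCM2, MCM3, MCM6 and MCM7), in 3 of the 4 G1/S members (CDC25A, E2F1 and E2F2), in PCNA and TYMS, and in 2 later members, CDK1 and CENPA. A CHR match was present in 15 of 33 (45.5%) against 19.5% of all genes, among them 5 of 7 G2 and mitotic entry members, 6 of 9 segregation and exit members, MKI67 and TOP2A. CCAAT was present in 26 of 33 (78.8%) against 39.7%. These matches describe the letters in the windows and are not measured sites.

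The lines differed first of all in their baseline. Over the 20 libraries the members' mean levels ran from 9.97 FPKM for CDC25C to 168 for PCNA, the sliding clamp of DNA polymerase. The mean log2(FPKM + 1) of the 40 members in a library was 5.34 and 5.38 in RPMI-8226 WT, 5.57 and 5.66 in L363 WT, 5.62 and 5.80 in AMO1 WT, and 5.80 and 5.94 in ARH-77 WT. By this mean the RPMI-8226 pair lay below the other WT pairs, the L363 and AMO1 pairs overlapped, and the ARH-77 pair touched the upper AMO1 library. Part of the RPMI-8226 gap rested on UBE2C. Without UBE2C the means were 5.49 and 5.45 in RPMI-8226 WT and 5.55 and 5.64 in L363 WT. The members' share of the summed FPKM was 0.503% and 0.495% in RPMI-8226 WT and 0.460% and 0.497% in L363 WT, pairs that overlapped. Between the 4 WT lines, 36 of the 40 members passed limma's moderated F test (adjusted p under 0.05), where 92.6% of all tested genes did. The 4 that did not were MCM7, PLK1, CENPA and KIF20A.

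The member with the lowest adjusted p between the WT lines was UBE2C. It was listed at 0.840 and 0.950 FPKM in RPMI-8226 WT and at 1.40 and 1.17 in RPMI-8226 BtzR, and at 76.7 to 184 FPKM in the other 16 libraries. No other tested gene was under 2 FPKM in all 4 RPMI-8226 libraries and at 50 FPKM or more in all 16 others, a search made after this value was seen. CDC20, the activator of the same complex, had 132 and 113 FPKM in RPMI-8226 WT, which lay above the AMO1 and L363 WT libraries (63.4 to 83.8). Of the 5 listed genes on each side in RefSeq order, the nearest were DNTTIP1, with 9.72 to 12.2 FPKM in RPMI-8226 and 13 to 30.8 elsewhere, and SNX21, with 0.440 to 0.910 and 0.510 to 3.62. ZSWIM1 was also lower in all 4 RPMI-8226 libraries (4.27 to 5.68 against 6.34 to 9.07). The ranges of DBNDD2, PIGT, EPPIN, WFDC8, ACOT8, ZSWIM3 and SPATA25 overlapped those elsewhere, with log2 ratios of the means from −3.39 for DBNDD2 to 0.83 for WFDC8, and that of UBE2C was −6.77. A value of about 1 FPKM in a table without counts does not show whether the transcript was absent from these cells or not assigned to the gene, and the reason was not tested.

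**Figure D1:**
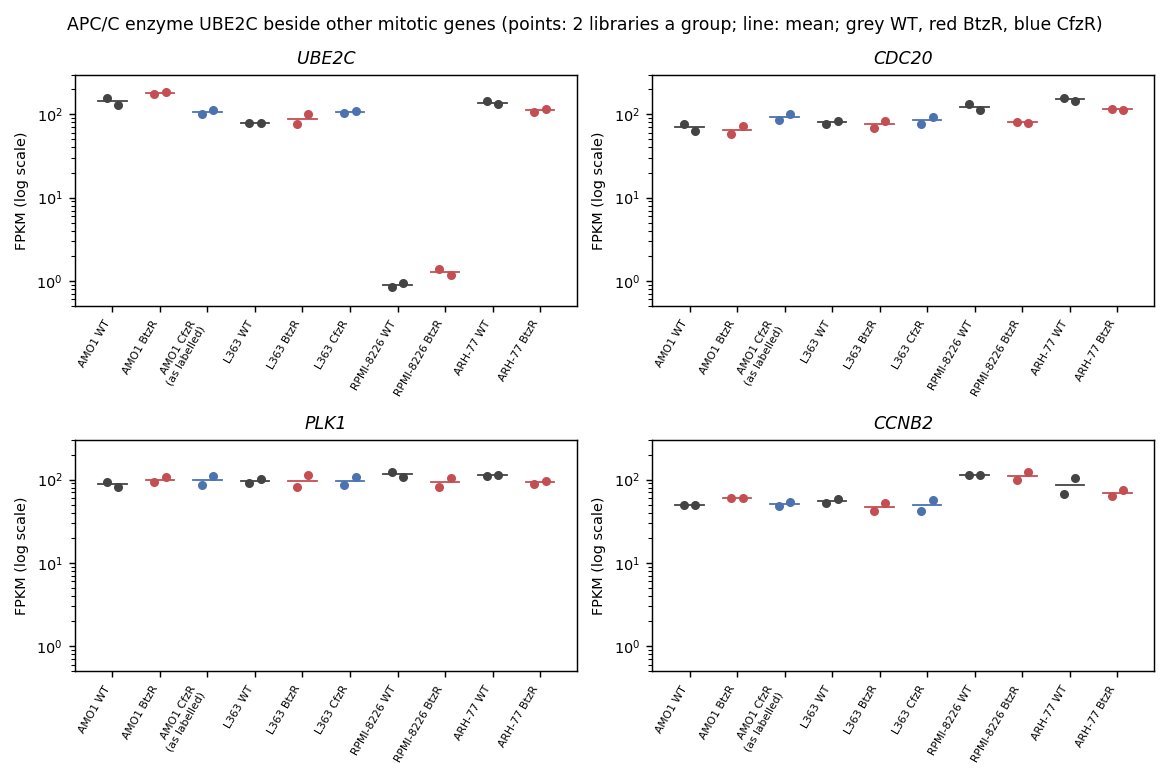
FPKM of UBE2C, CDC20, PLK1 and CCNB2 (log scale, same range in each panel) in the 10 groups, with points for the 2 libraries and a line for their mean. UBE2C is near 1 FPKM in the 4 RPMI-8226 libraries and at 76.7 FPKM or more in the others. CDC20, PLK1 and CCNB2 are at 79.0 to 132 FPKM in RPMI-8226 and at 41.5 to 157 FPKM in the other libraries.

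The 4 members that followed UBE2C in that test were TK1, E2F1, CCNE1 and AURKB. TK1, the thymidine kinase that salvages thymidine for DNA synthesis, had 118 and 128 FPKM in RPMI-8226 WT, 47.5 and 49.6 in ARH-77 WT, 45.7 and 48.1 in L363 WT and 35.2 and 34.7 in AMO1 WT. The RPMI-8226 and AMO1 pairs were separate from all others, and the ARH-77 and L363 pairs overlapped (adjusted p = 1.5e-10). The transcription factor E2F1 had 37.4 and 37.9 FPKM in L363 WT, 32.3 and 34.4 in ARH-77 WT, 20.2 and 19.4 in AMO1 WT and 13.8 and 12.5 in RPMI-8226 WT, 4 pairs that did not overlap (1.2e-08). CCNE1, an E-type cyclin, was also lowest in RPMI-8226 WT, with 6.67 and 7.01 FPKM against 18.0 to 26.7 in the other WT libraries (1.5e-08). AURKB, the kinase of the chromosomal passenger complex, had 101 and 86.5 FPKM in AMO1 WT against 35.8 to 51.2 in the other WT libraries (1.8e-08). MKI67, whose protein Ki-67 is the usual stain for cycling cells, had 79.4 and 85.2 FPKM in L363 WT, 45.4 and 58.3 in ARH-77 WT, 52.5 and 38.1 in AMO1 WT and 22.7 and 23.1 in RPMI-8226 WT (5.8e-08). Its ARH-77 and AMO1 pairs overlapped, and the order of the lines thus differed from gene to gene.

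The B-lymphoblastoid line was compared with the mean of the 3 myeloma WT lines. In ARH-77 WT 20 members were higher and 6 were lower, where 38.9% and 34.2% of all tested genes were called in these directions, and the median difference of the members was 0.34 on the log2 scale against 0.04 for all tested genes. AURKA, a centrosomal mitotic kinase, had 91.2 and 98.4 FPKM in ARH-77 WT against 33.2 to 59.1 in the 6 myeloma WT libraries (log2 difference 1.06, SE 0.11, adjusted p = 3.5e-07). CDK1, the mitotic cyclin-dependent kinase, had 90.7 and 114 FPKM against 44.5 to 59.9 (0.96, SE 0.08, 7.3e-08). CENPE, a kinetochore motor, had 19.3 and 30.1 FPKM against 9.43 to 18.1 (0.82, SE 0.21, 0.00251), and CDC20 had 157 and 146 against 63.4 to 132 (0.77, SE 0.11, 1.5e-05). In these 4 genes both ARH-77 libraries lay above all 6 myeloma libraries.

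AURKA and UBE2C were the 2 members past the test with at least a 2-fold difference, a size reached by 22.3% of all tested genes. The difference of UBE2C, 2.32 (SE 0.10, adjusted p = 1.7e-11), came with overlapping groups, since ARH-77 WT had 144 and 132 FPKM, AMO1 WT 157 and 128, and the low mean of the myeloma lines rested on RPMI-8226. Lower in ARH-77 WT than the mean of the 3 lines, each with overlapping groups, were CDC25A, a phosphatase that activates CDK2 (−0.68, SE 0.13, 0.00028), E2F2 (−0.43, SE 0.10, 0.00102), BUB1 (−0.42, SE 0.11, 0.00258), TK1 (−0.27, SE 0.07, 0.00225), RRM1 (−0.20, SE 0.07, 0.0219) and AURKB (−0.20, SE 0.08, 0.0252). For TK1 both ARH-77 WT libraries lay below RPMI-8226 WT but above AMO1 WT and overlapped L363 WT, and for AURKB they lay below AMO1 WT and above L363 WT. MCM2 was higher (0.44, SE 0.08, 0.00014) as was PCNA (0.49, SE 0.11, 0.00118), and MKI67 and CCNB1 did not pass (0.22, SE 0.11, and −0.14, SE 0.11). Of the 26 calls, 17 held in every alternative and 9 did not, those of RRM1, TYMS, AURKB, BUB1, BUB1B, CENPA, CENPE, CENPF and TOP2A, each of which was lost without at least 1 of the ARH-77 WT libraries.

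Resistance was compared with each line's own parent. The number of members past the test was 21 in AMO1 BtzR, 13 in RPMI-8226 BtzR, 7 in ARH-77 BtzR, 3 in L363 BtzR, then 1 in L363 CfzR cells, and 28 of the 40 members passed in at least 1 of these 5 comparisons, where 80.9% of all tested genes did. The 12 that passed in none were CDT1, MCM4, MCM5, CCNA2, CCNB2, PLK1, AURKA, BIRC5, BUB1B, CENPE, CENPF and MKI67.

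**Figure D2:**
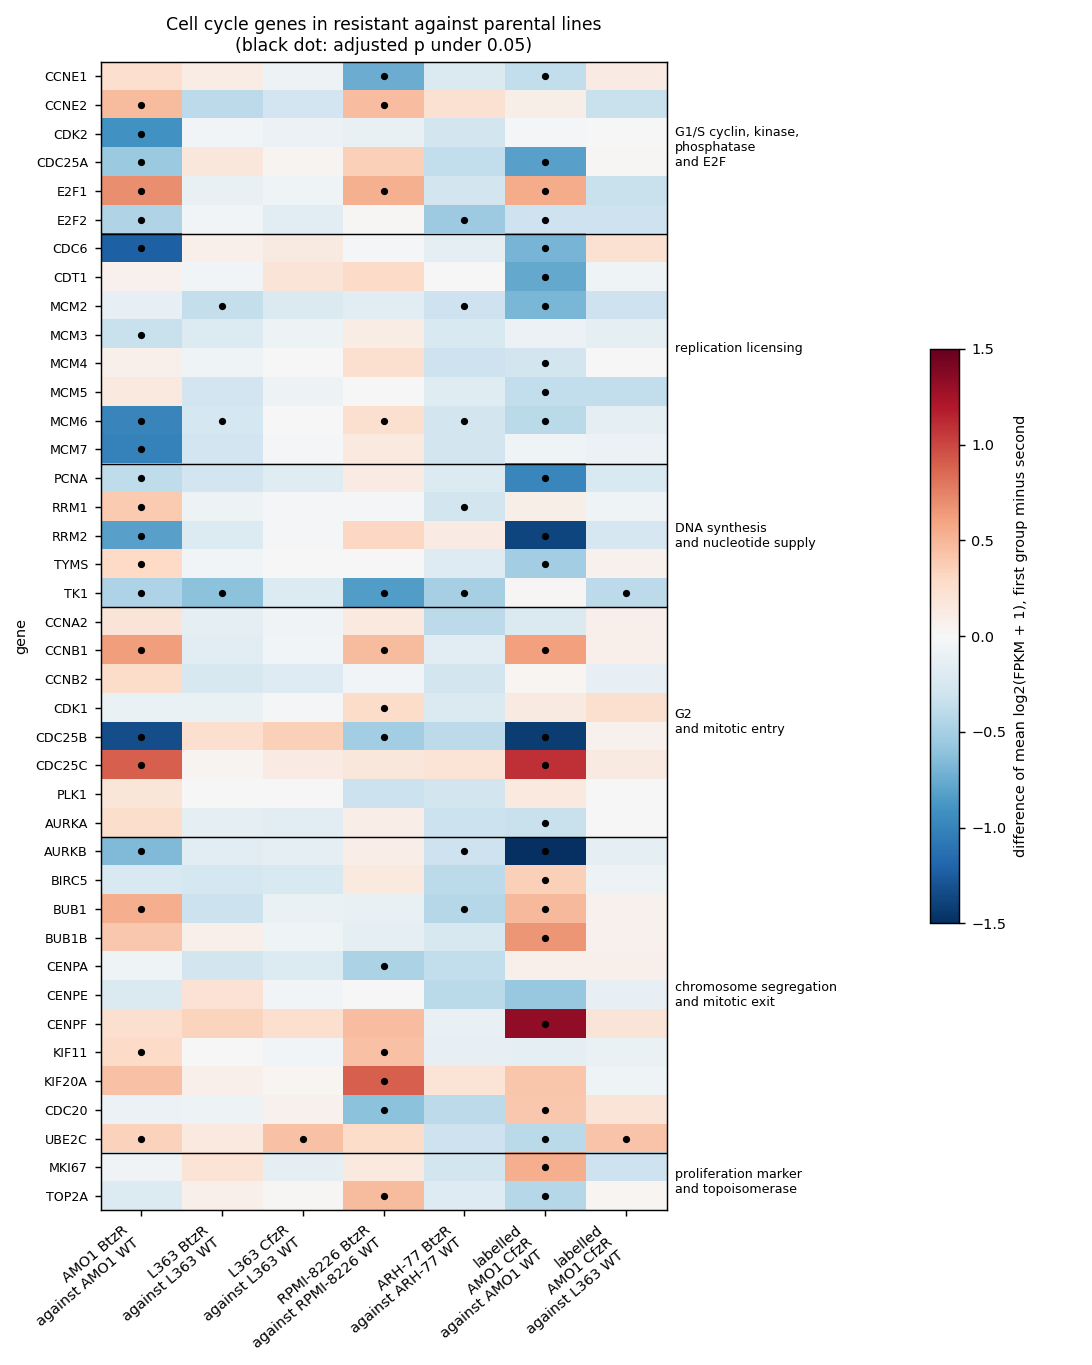
Difference of mean log2(FPKM + 1) for each of the 40 members (rows, grouped by role) in 7 comparisons (columns; red, higher in the first group; blue, lower), with a dot where the adjusted p was under 0.05. TK1 is lower with a dot in all 4 BtzR columns. AMO1 BtzR has 21 dots against 3 in L363 BtzR, where 6702 and 1464 of the 13089 tested genes passed.

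TK1 was the 1 member that was lower and past the test in all 4 BtzR lines, a pattern shown by 18 of the 13089 tested genes (0.138%), and no member was higher in all 4, as 0.153% of tested genes were. In AMO1 it had 35.2 and 34.7 FPKM in WT and 24.4 and 26.0 in BtzR cells (log2 difference −0.46, SE 0.08, adjusted p = 0.00035). In L363 it had 45.7 and 48.1 in WT and 32.2 and 28.5 in BtzR cells (−0.61, SE 0.08, 0.00013). In RPMI-8226 it had 118 and 128 in WT and 72.1 and 65.0 in BtzR cells (−0.84, SE 0.08, 7.1e-07). In ARH-77 it had 47.5 and 49.6 in WT and 32.1 and 36.2 in BtzR cells (−0.50, SE 0.08, 0.00079). Both BtzR libraries lay below both WT libraries in each line, and each of the 4 calls held in all 13 alternatives, leaving out single libraries included. The size differed between the lines (moderated F test, adjusted p = 0.0353). In L363 CfzR cells TK1 had 41.4 and 39.6 FPKM, below both WT libraries but not past the test (−0.21, SE 0.08, adjusted p = 0.170).

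The other enzymes among the members that supply DNA precursors did not share this pattern. TYMS, which makes thymidylate by the other route, was higher in AMO1 BtzR (261 and 251 FPKM against 218 and 198 in WT, log2 difference 0.30, SE 0.12, adjusted p = 0.0442) and passed in no other BtzR line. RRM2, the small subunit of ribonucleotide reductase, was lower in AMO1 BtzR (119 and 114 FPKM against 241 and 178, −0.82, SE 0.13, 0.00013) and passed in no other BtzR line, and its BtzR effect differed between the lines (4.9e-04). RRM1, the large subunit, was higher in AMO1 BtzR (76.0 and 73.3 against 63.1 and 51.0, 0.39, SE 0.09, 0.00173) and lower in ARH-77 BtzR (40.6 and 38.4 against 48.0 and 48.1, −0.28, SE 0.09, 0.0472), and its effect also differed (0.00164). The 2 subunits of this enzyme thus moved in opposite directions in AMO1 BtzR.

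**Figure D3:**
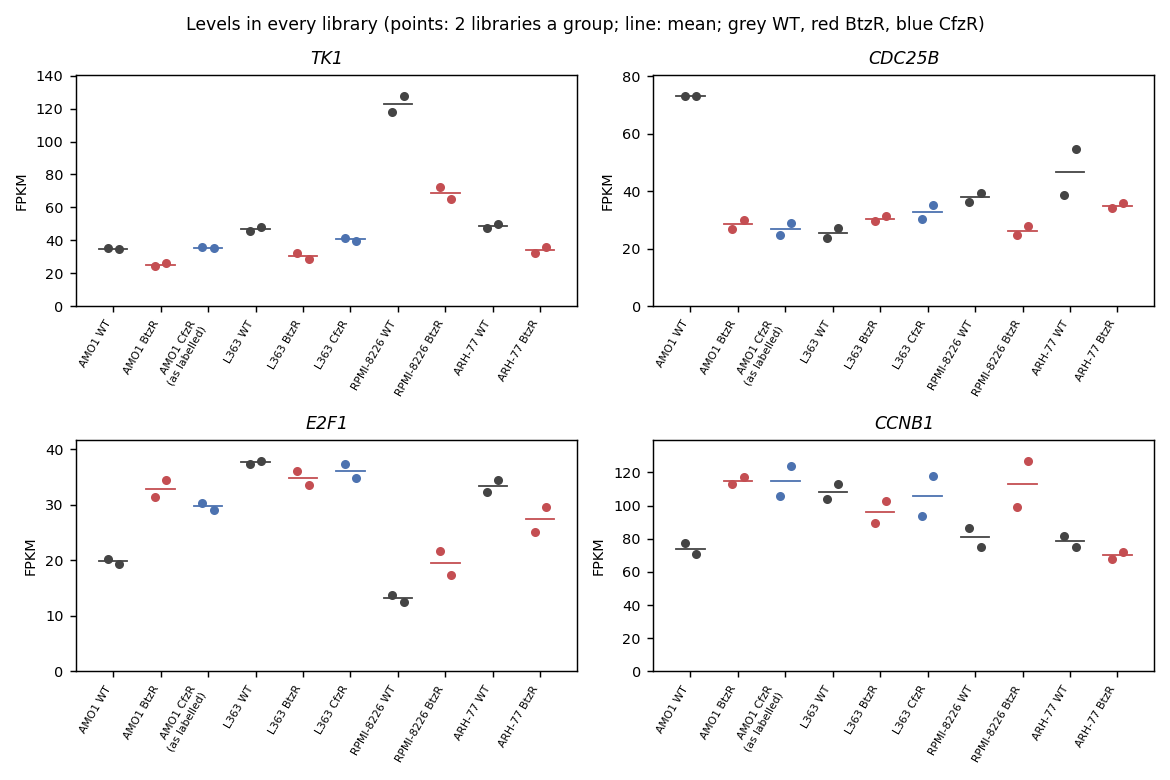
FPKM (linear, from 0) of TK1, CDC25B, E2F1 and CCNB1 in the 10 groups, with points for the 2 libraries and a line for their mean. TK1 lies lower in each BtzR pair than in its WT pair, whereas E2F1 and CCNB1 are higher in the BtzR pairs of AMO1 and RPMI-8226 and not in those of L363 and ARH-77.

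AMO1 BtzR had the most member calls of the BtzR lines. Of the 40 members 9 were higher and 12 lower, where 25.6% of all tested genes were called in each direction, and 3 passed with at least a 2-fold difference, as 9.18% of tested genes did. The members' median was 0.01 against 0.00 for all tested genes. The members therefore moved in both directions without a shift as a group, and the calls by role, whose differences were not tested, were as follows: the 4 licensing members of 8 that passed were lower, 3 of 5 supply members were lower and 2 higher, 5 of 6 G1/S members passed (2 higher, 3 lower), and of the 19 members of G2, mitosis and exit 5 were higher and 2 lower.

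CDC25B, a phosphatase that activates CDK1 at the G2/M boundary, had 73.1 and 73.3 FPKM in AMO1 WT and 27 and 30.1 in BtzR cells (−1.33, SE 0.14, adjusted p = 1.9e-06). The licensing factor CDC6 had 66.6 and 50.6 FPKM in WT and 23.9 and 24.7 in BtzR cells (−1.22, SE 0.15, 1.2e-05). CDK2, the partner of cyclin E, had 51.8 and 46.2 in WT and 25.4 and 25.6 in BtzR cells (−0.91, SE 0.09, 1.6e-06). The groups of these genes did not overlap, with mean FPKM of 28.6 against 73.2 for CDC25B, 24.3 against 58.6 for CDC6 and 25.5 against 49.0 for CDK2. AURKB (101 and 86.5 against 56.8 and 60.8, −0.66, SE 0.09, 3.4e-05), CDC25A (−0.56, SE 0.16), TK1, E2F2 (−0.45, SE 0.12), PCNA (263 and 206 against 178 and 181, −0.38, SE 0.14, 0.0323) and MCM3 (−0.33, SE 0.09) were also lower.

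The 6 subunits of the MCM2-7 helicase, which act as 1 ring, changed unequally in AMO1 BtzR. MCM6 had 68.0 and 64.0 FPKM in WT and 33.0 and 32.5 in BtzR cells (−0.99, SE 0.08, adjusted p = 1.1e-07). MCM7 had 181 and 156 in WT and 78.2 and 87.9 in BtzR cells (−1.01, SE 0.11, 2.3e-06). MCM2 did not pass, with 88.3 and 87.5 in WT and 78.5 and 83.7 in BtzR cells (−0.12, SE 0.09, 0.340), nor did MCM4 and MCM5. Within a library the ratio of MCM6 to MCM2 fell from 0.77 and 0.73 in WT to 0.42 and 0.39 in BtzR cells, and that of MCM7 to MCM2 from 2.05 and 1.78 to 1.00 and 1.05. In the other 16 libraries these ratios were 0.57 to 1.68 and 1.57 to 3.98, so both AMO1 BtzR libraries had the lowest ratios of the series.

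**Figure D4:**
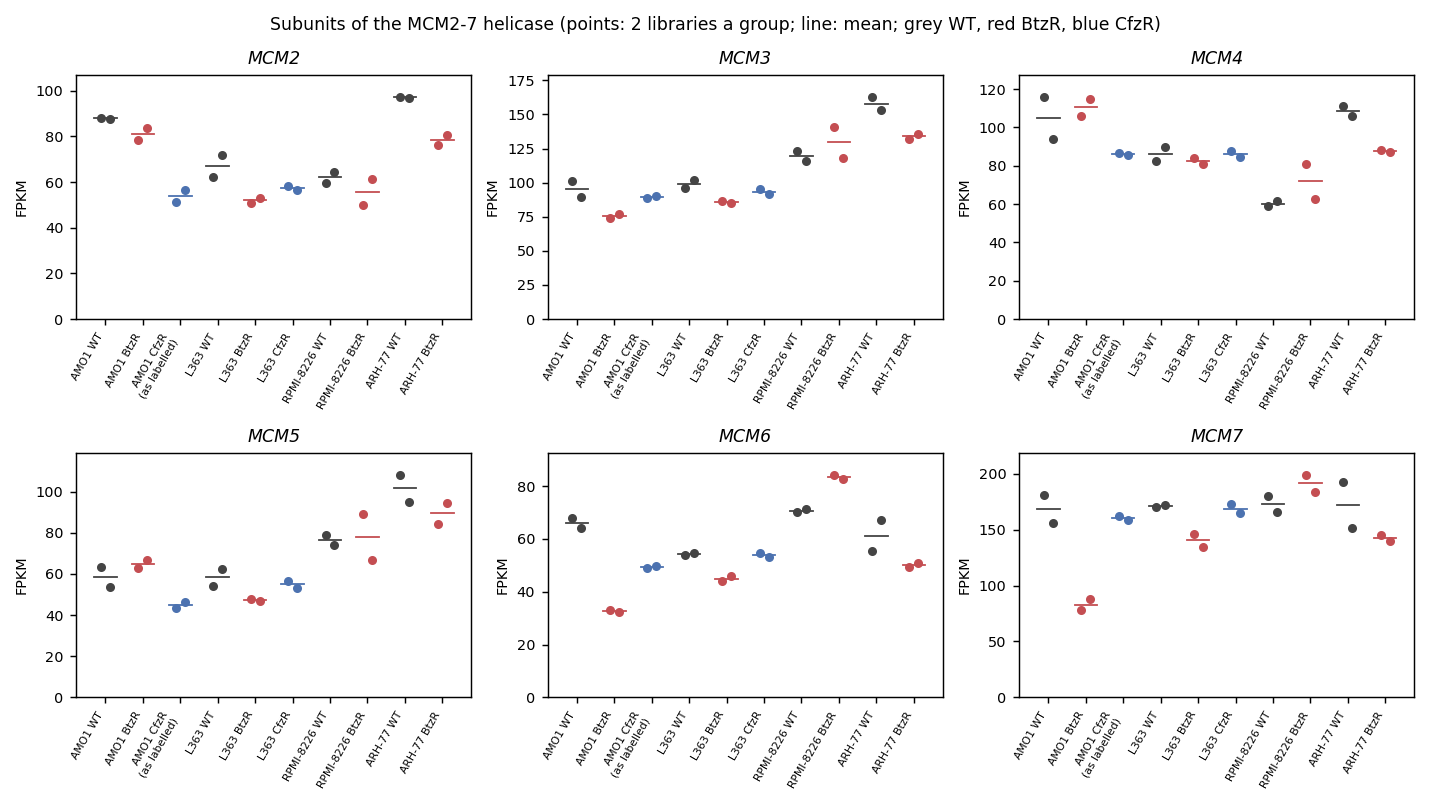
FPKM (linear, from 0) of the 6 MCM2-7 subunits in the 10 groups, with points for the 2 libraries and a line for their mean. MCM6 and MCM7 are at 32.5 to 33.0 and 78.2 to 87.9 FPKM in AMO1 BtzR, below all other libraries, as is MCM3 at 74.2 to 76.9 FPKM, while MCM2, MCM4 and MCM5 in AMO1 BtzR are not.

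Genes next to several of these members were lower in AMO1 BtzR as well. Of the 10 tested genes on each side in RefSeq order, 16 of 20 around CDK2 were lower and 1 higher (median −0.72), 15 and 2 of 20 around RRM2 (−0.65), and 13 and 0 of 20 around MCM7 (−0.43). Around CDC6, CDC25B and MCM6 they were 9 and 5 (−0.33), 9 and 5 (−0.14), and 6 and 4 (−0.15) of 20. Over all tested genes 25.6% were lower and 25.6% higher. This look at the members that were lower by at least 0.8 was chosen after their values were seen, and the part of the neighbourhood in these results was not tested.

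Higher in AMO1 BtzR were CDC25C, another CDC25 phosphatase of mitotic entry, with 10.3 and 10.1 FPKM against 4.51 and 5.45 in WT (0.90, SE 0.24, adjusted p = 0.00618). E2F1 had 31.4 and 34.4 FPKM against 20.2 and 19.4 (0.70, SE 0.10, 5.4e-05), in contrast to the lower E2F2. CCNB1, the mitotic cyclin, had 113 and 117 against 77.2 and 71.0 (0.63, SE 0.13, 0.001). The BtzR and WT libraries of these 3 genes did not overlap. The spindle checkpoint kinase BUB1 (0.54, SE 0.13, 0.00323), CCNE2 (0.47, SE 0.15, 0.0205), RRM1, UBE2C (0.34, SE 0.12), TYMS and the spindle motor KIF11 (0.29, SE 0.11) completed the 9. MKI67 did not pass (52.5 and 38.1 in WT, 42.1 and 44.0 in BtzR cells, −0.05, SE 0.13). Of the 21 calls 12 held in every alternative (CDK2, E2F1, CDC6, MCM6, MCM7, RRM1, RRM2, TK1, CCNB1, CDC25B, AURKB and BUB1), and 9 did not. Those of CDC25A, E2F2, MCM3, PCNA, TYMS and CDC25C were lost without AMO1 WT replicate 1, and those of CCNE2, KIF11 and UBE2C without AMO1 WT replicate 2 or AMO1 BtzR replicate 1.

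RPMI-8226 BtzR had 8 members higher and 5 lower, where 30.2% and 24.2% of tested genes were called, and 0 with at least a 2-fold difference, a size that 13.8% of tested genes reached. The members' median was 0.12 against 0.05 for all tested genes. KIF20A, a motor of cytokinesis, had 27.6 and 42.4 FPKM against 19.3 and 16.6 in WT (0.90, SE 0.24, adjusted p = 0.00609). E2F1 had 21.7 and 17.4 against 13.8 and 12.5 (0.53, SE 0.10, 0.00052), and TOP2A, which untangles replicated chromosomes, had 132 and 163 against 106 and 104 (0.48, SE 0.18, 0.0330). CCNB1 (99.4 and 127 against 86.4 and 75.3, 0.47, SE 0.13, 0.00706), CCNE2 (0.46, SE 0.15, 0.0217), KIF11 (31.4 and 30.5 against 22.8 and 22.3, 0.44, SE 0.11, 0.00441), CDK1 (0.28, SE 0.10) and MCM6 (84.2 and 82.8 against 70.2 and 71.3, 0.24, SE 0.08, 0.0183) were higher too. In all 8 both BtzR libraries lay above both WT libraries.

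Lower in RPMI-8226 BtzR beside TK1 was CCNE1, with 4.36 and 3.07 FPKM against 6.67 and 7.01 in WT (−0.75, SE 0.13, adjusted p = 0.00017). The 2 E-type cyclins thus moved in opposite directions. CDC20 had 80.6 and 79.0 against 132 and 113 (−0.61, SE 0.13, 0.0015), CDC25B 24.7 and 27.7 against 36.4 and 39.5 (−0.52, SE 0.14, 0.00493), and CENPA, the centromeric histone, 13.5 and 20.3 against 24.8 and 22.1 (−0.47, SE 0.18, 0.0402). MKI67 (0.15, SE 0.13), PCNA (0.12, SE 0.14) and MCM2 (−0.16, SE 0.09) did not pass. The calls of CCNE1, E2F1, TK1, CDC25B, KIF11 and CDC20 held in every alternative, and the other 7 did not: without RPMI-8226 WT replicate 2 the count fell from 13 to 6. KIF20A overlaps CDC23, an APC/C subunit, in the RefSeq annotation, and CDC23 had 17.3 and 16.8 FPKM against 9.79 and 10.3 in the same libraries (0.71, SE 0.07, 1.1e-06); counts by strand are not stated, so reads of the 2 genes cannot be told apart there.

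The comparisons of AMO1 and RPMI-8226 share no library. CCNE2, E2F1, CCNB1 and KIF11 were higher in both, 4 of 40 members where 9.58% of tested genes were, and TK1 and CDC25B were lower in both, where 7.83% were. MCM6 was the 1 member called in opposite directions, where 12.2% of tested genes were. The members' shares in these patterns were thus near or below those of all genes.

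All members past the test in ARH-77 BtzR were lower than in its parent. The count was 7 members lower, where 7.60% of tested genes were, and 0 higher by limma, where 5.98% were. At an unadjusted p under 0.05 the counts were 21 lower and 0 higher. The share of all tested genes at that threshold was not computed, so these 2 counts have no background. None of the 7 reached 2-fold, as 1.60% of tested genes did, and the members' median was −0.28 against −0.04 for all tested genes. E2F2 had 11.1 and 12.9 FPKM against 16.8 and 19.2 in WT (−0.55, SE 0.12, adjusted p = 0.00548). BUB1 had 42.5 and 43.7 against 47.8 and 71.0 (−0.43, SE 0.13, 0.0453), MCM2 76.2 and 80.5 against 97.4 and 96.8 (−0.31, SE 0.09, 0.0461), and AURKB 38.0 and 37.7 against 45.7 and 49.0 (−0.31, SE 0.09, 0.0345). MCM6 (−0.28, SE 0.08, 0.0261) and RRM1 were lower as well, and in all 7 genes both BtzR libraries lay below both WT libraries.

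The count of ARH-77 BtzR depended on single libraries. It was 13 without ARH-77 WT replicate 1, 2 without ARH-77 BtzR replicate 1 or replicate 2, and 4 without the 2 libraries labelled AMO1 CfzR, which enter this comparison only through the shared variance. TK1 alone passed in every alternative. MKI67 (45.4 and 58.3 in WT, 39.8 and 44.6 in BtzR cells, −0.28, SE 0.13), PCNA (−0.21, SE 0.14) and CCNB1 (−0.16, SE 0.13) did not pass.

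L363 BtzR and L363 CfzR cells had few member calls. In BtzR cells 3 members were lower, where 5.52% of tested genes were, and 0 were higher by limma, where 5.66% were. The counts at an unadjusted p under 0.05 were 9 lower and 0 higher, without a share of all genes computed there. The members' median was −0.08 against 0.00. Beside TK1, the members lower by limma were MCM2, with 50.9 and 53.2 FPKM against 62.3 and 72 in WT (−0.36, SE 0.09, adjusted p = 0.0246), and MCM6, with 44.2 and 45.8 against 53.9 and 54.5 (−0.26, SE 0.08, 0.0399). Both calls were lost without L363 WT replicate 2 or either L363 BtzR library, MCM6's also without L363 WT replicate 1, and TK1's was not. MKI67 (0.20, SE 0.13), PCNA (−0.29, SE 0.14) and CCNB1 (−0.17, SE 0.13) did not pass.

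In L363 CfzR cells UBE2C was higher, with 104 and 111 FPKM against 79.1 and 78.6 in WT (0.44, SE 0.12, adjusted p = 0.0330). It was the 1 call, where 4.88% of tested genes were higher and 3.58% lower, and 0 members were lower by limma. The counts at an unadjusted p under 0.05 were 2 higher and 2 lower, without a share of all genes computed there. UBE2C's call was lost without any 1 of the 4 libraries. The members' median was −0.04 against 0.00, and MCM2 (−0.22, SE 0.09), PCNA (−0.18, SE 0.14), MKI67 (−0.15, SE 0.13) and CCNB1 (−0.04, SE 0.13) did not pass. No member reached 2-fold in L363 BtzR or L363 CfzR, as 2.06% and 1.93% of tested genes did.

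The 2 drugs were set against each other within L363. TK1 was higher in CfzR than in BtzR cells (41.4 and 39.6 against 32.2 and 28.5 FPKM, log2 difference 0.41, SE 0.08, adjusted p = 0.00622), the 1 call among the members, where 3.27% of tested genes were higher, 2.87% lower and 1.47% past 2-fold. No member was lower by limma. The counts at an unadjusted p under 0.05 were 4 higher and 1 lower, without a share of all genes computed there. TK1's call was lost without L363 BtzR replicate 2 or L363 CfzR replicate 1. MKI67 had 72.6 and 75.9 FPKM in CfzR and 89.4 and 100 in BtzR cells and did not pass (−0.35, SE 0.13, 0.178), nor did PCNA (0.11, SE 0.14), CCNB1 (0.13, SE 0.13) or MCM2 (0.14, SE 0.09). The comparisons of both drugs with L363 WT share the WT libraries.

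For the libraries labelled AMO1 CfzR the choice of parent decided the picture. Against AMO1 WT 9 members were higher and 17 lower, where 26.8% and 30.9% of tested genes were, and 5 passed 2-fold, as 17.1% of tested genes did. AURKB had 30.0 and 35.1 FPKM against 101 and 86.5 (−1.5, SE 0.09, adjusted p = 2.6e-09), CDC25B 24.6 and 29 against 73.1 and 73.3 (−1.42, SE 0.14, 4.3e-07) and RRM2 80.7 and 77.4 against 241 and 178 (−1.38, SE 0.13, 4.5e-07). PCNA (122 and 114 against 263 and 206, −0.98, SE 0.14, 2.1e-05), CDC25A (−0.82, SE 0.16, 0.00048) and MCM2 (−0.69, SE 0.09, 1.8e-05) were lower. CENPF, a kinetochore protein, had 33.9 and 40.2 against 14.7 and 13.5 (1.33, SE 0.21, 6.7e-05), and CDC25C 10.9 and 12.6 against 4.51 and 5.45 (1.09, SE 0.24, 0.00132). BUB1B (0.66, SE 0.18, 0.00582), CCNB1 (0.62, SE 0.13, 0.00088), E2F1 (0.56, SE 0.10, 0.00029) and MKI67 (64.8 and 67.4 against 52.5 and 38.1, 0.55, SE 0.13, 0.00221) were higher. Of the 26 calls 15 held in every alternative, and the other 11 were each lost without AMO1 WT replicate 1 or without AMO1 WT replicate 2.

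Against L363 WT the same 2 libraries had 1 member higher and 1 lower, where 3.52% and 3.40% of tested genes were and 1.66% passed 2-fold. TK1 had 35.7 and 35.4 FPKM against 45.7 and 48.1 (−0.39, SE 0.08, adjusted p = 0.00788), and UBE2C 100 and 113 against 79.1 and 78.6 (0.43, SE 0.12, 0.0448). With each library scaled to the same sum, or with quantile normalization, UBE2C's call was lost and the count was 0 higher and 1 lower. Both calls were lost when either of the labelled libraries or L363 WT replicate 2 was left out. AURKB in these libraries (30.0 and 35.1) lay close to the 35.9 and 35.8 FPKM of L363 WT. MKI67 (−0.31, SE 0.13), MCM2 (−0.31, SE 0.09), PCNA (−0.23, SE 0.14) and CCNB1 (0.08, SE 0.13) did not pass.

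The BtzR effect differed between the 4 lines for 23 members by the moderated F test, where 71.1% of all tested genes passed. MCM6 (adjusted p = 2.2e-06), CDC25B (5.4e-05), E2F1 (6.6e-05), MCM7 (8.3e-05) and CDK2 (1.4e-04) had the lowest values. MCM6 was lower by 0.99 in AMO1, 0.26 in L363 and 0.28 in ARH-77 but higher by 0.24 in RPMI-8226, as the plot of the MCM subunits shows. All 6 G1/S members passed this test, and 4 of the 11 segregation and exit members did.

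In some groups the gap between the 2 libraries was not alike in the mitotic members and in the licensing and supply members. In L363 BtzR all 19 members of G2, mitosis and exit were higher in replicate 2, with a median gap of 0.31 on the log2 scale, while 5 of the 13 licensing and supply members were, with a median of −0.03, and 50.2% of all tested genes. In L363 CfzR the counts were 19 of 19 (0.28) and 0 of 13 (−0.06), with 55.1% of tested genes. ARH-77 WT had 16 of 19 (0.33) and 4 of 13 (−0.09), and the libraries labelled AMO1 CfzR 17 of 19 (0.21) and 6 of 13 (−0.01). RPMI-8226 BtzR had 13 of 19 (0.16) and 3 of 13 (−0.15). Its median absolute gap was smaller in the mitotic members (0.19) than in the licensing and supply members (0.29). Elsewhere both sets lay on the same side: AMO1 WT had 3 of 19 (−0.15) and 1 of 13 (−0.22), AMO1 BtzR 13 of 19 (0.05) and 9 of 13 (0.05), L363 WT 16 of 19 (0.13) and 10 of 13 (0.07), RPMI-8226 WT 7 of 19 (−0.14) and 6 of 13 (−0.01), and ARH-77 BtzR 13 of 19 (0.08) and 7 of 13 (0.04). The labels do not state what the numbers 1 and 2 stand for, or whether same-numbered libraries were handled together. The median of the mitotic members was above 0 in every group but AMO1 WT and RPMI-8226 WT. The cause was not tested, and the gaps describe how far the 2 libraries of a group differed in their mitotic transcripts. In the ARH-77 WT pair CDC25C had 6.90 and 14.8 FPKM and CCNB2 68.0 and 104.

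**Figure D5:**
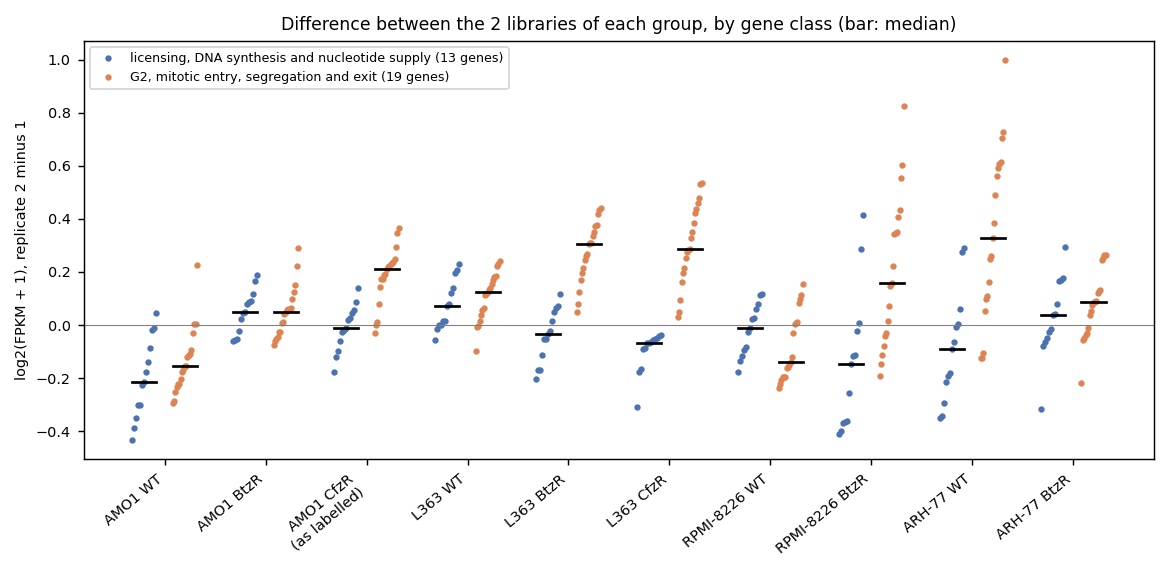
Difference between replicate 2 and replicate 1 in log2(FPKM + 1) for 13 licensing and supply members (blue) and 19 G2, mitotic and exit members (orange) in each group, with a bar at the median. The orange points of L363 BtzR and L363 CfzR all lie above 0, at medians of 0.31 and 0.28, while the blue medians there are −0.03 and −0.06.

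Around the members, 109 other cell cycle genes were followed in 7 lists. In AMO1 BtzR 23 of the 109 were higher and 26 lower, in RPMI-8226 BtzR 30 and 15, in ARH-77 BtzR 5 and 15 and in L363 BtzR 2 and 5, while 3 were lower in L363 CfzR. The shares of all tested genes called higher and lower were 25.6% and 25.6%, 30.2% and 24.2%, 5.98% and 7.60%, and 5.66% and 5.52% in the first 4, and 3.58% were lower in L363 CfzR; the same shares are the background of the list counts that follow. Among the CDK inhibitors (7 genes), CDKN1A, which encodes p21, was lower past the test in AMO1 BtzR, L363 BtzR and L363 CfzR and in the libraries labelled AMO1 CfzR. It had 32.8 and 36.5 FPKM in L363 WT, 1.16 and 1.67 in L363 BtzR (log2 difference −3.89, SE 0.41, adjusted p = 1.0e-05) and 5.33 and 6.67 in L363 CfzR (−2.35, SE 0.41, 0.00128), and it was higher in CfzR than in BtzR cells (1.54, SE 0.41, 0.0343). In AMO1 it had 174 and 179 in WT and 88.2 and 79.4 in BtzR cells (−1.07, SE 0.41, 0.0394), and 2.92 and 4.21 in the libraries labelled AMO1 CfzR (−5.30, SE 0.41, 3.3e-08 against AMO1 WT, and −2.98, SE 0.41, 1.8e-04 against L363 WT). In ARH-77 it had 17.4 and 16.7 in WT and 16.6 and 14.7 in BtzR cells, and the RPMI-8226 BtzR pair differed widely (3.27 and 16.4 against 5.14 and 5.41 in WT).

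CDKN2C, which encodes p18, was listed at 0 in all 4 RPMI-8226 libraries. In ARH-77 it was higher in BtzR cells, with 10.3 and 12.2 FPKM against 2.71 and 5.23 (1.34, SE 0.17, adjusted p = 6.5e-05). CDKN1C, which encodes p57, was higher in RPMI-8226 BtzR (5.77 and 8.07 against 2.18 and 2.78, 1.18, SE 0.14, 6.4e-06) and, at levels near 1 FPKM, in AMO1 BtzR (0.86, SE 0.14, 1.7e-04). In ARH-77 WT all 7 CDK inhibitors passed against the myeloma lines, 6 of them lower than the mean of the 3 lines, where 34.2% of all tested genes were lower and 38.9% higher, with a list median of −0.92 against 0.04 for all tested genes. For CDKN1A and CDKN2C the groups overlapped, since both ARH-77 WT libraries lay above RPMI-8226 WT.

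Of the 13 G1 cyclins, CDKs and pocket proteins, 3 passed in AMO1 BtzR (RB1 higher by 0.45, SE 0.08, and CCND3 and E2F5 lower), 7 in RPMI-8226 BtzR (4 higher, with E2F3 at 0.79, SE 0.10, and CDK6 at 0.52, SE 0.14, and 3 lower, with RBL2 and CDK4), and 3 in ARH-77 BtzR (CCND1 higher, and CDK6 and RB1 lower). The late E2Fs with B-MYB, FOXM1 and MuvB had 3, 4 and 1 calls of 9 in these lines, among them E2F8 higher in AMO1 BtzR (0.65, SE 0.16) and MYBL2 lower in ARH-77 BtzR (139 and 143 FPKM against 219 and 184, −0.51, SE 0.11, adjusted p = 0.00754).

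Of the 15 origin and CMG genes, 8 were lower and 3 higher in AMO1 BtzR, where 25.6% of all tested genes were called in each direction. ORC5, an origin subunit, was lower (15.2 against 28.4 FPKM on average, −0.86, SE 0.11, adjusted p = 1.9e-05), as was DBF4, the activator of the CDC7 kinase (−0.80, SE 0.09, 4.1e-06), and ORC6 was higher (0.81, SE 0.07, 5.5e-07). In ARH-77 BtzR 5 of the 15 passed, all lower, with ORC1 at −0.60 (SE 0.08, 1.4e-04). Of the 20 fork genes, 4 were higher and 5 lower in AMO1 BtzR, and the subunits of the single-strand binding protein RPA split there, with RPA1 (−1.04, SE 0.09, 2.2e-07) and RPA2 (−0.78, SE 0.10, 1.9e-05) lower and RPA3 higher (0.57, SE 0.12, 9.4e-04). POLE2, a subunit of polymerase epsilon, was higher in L363 BtzR, with 35.0 and 34.9 FPKM against 17.8 and 17.5 in WT (0.95, SE 0.09, 5.3e-06) and 17.3 and 16.4 in CfzR cells, and in ARH-77 BtzR, with 19.2 and 19.4 against 12.1 and 9.95 (0.76, SE 0.09, 5.6e-05).

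Of the 28 spindle, kinetochore and cytokinesis genes, 10 were higher and 3 lower in AMO1 BtzR (25.6% of all tested genes in each direction), where KIF4A (0.79, SE 0.13, adjusted p = 1.8e-04) and NEK2 (0.78, SE 0.17, 0.00178) were higher and the separase gene ESPL1 lower (−1.25, SE 0.14, 3.1e-06). In RPMI-8226 BtzR 8 were higher and 4 lower (30.2% and 24.2% of all tested genes), among them KIF23 (0.91, SE 0.16, 2.2e-04) and ECT2 (0.77, SE 0.15, 5.8e-04), which act in cytokinesis with KIF20A. ESPL1 was lower there (−0.42, SE 0.14, 0.0158) and in ARH-77 BtzR (−0.46, SE 0.14, 0.0373). In ARH-77 BtzR 1 of the 28 was higher, DLGAP5 (0.67, SE 0.17, 0.0147), and 2 were lower. Of the 17 APC/C genes, 3 were higher and 5 lower in AMO1 BtzR. ANAPC5 (−0.90, SE 0.06, 4.0e-08) and ANAPC4 (−0.84, SE 0.09, 3.0e-06) were lower there. ANAPC2 (0.79, SE 0.12, 6.5e-05) and CDC23 (0.77, SE 0.07, 7.4e-07) were higher. The RPMI-8226 BtzR cells had 4 of the list higher, CDC23 included, and 1 lower. ARH-77 BtzR had CDC23 higher (0.50, SE 0.07, 2.6e-04) and CDC26 lower (−0.55, SE 0.09, 0.00108). No APC/C gene passed in L363 BtzR.

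The members did not follow 1 common profile. Over the 9 groups other than AMO1 CfzR, each member's group means were set against the mean of the other 39 members, as a description over groups that share lines. CCNA2 (r = 0.92), CENPE (0.91) and MCM4 (0.89) lay closest to that mean, 13 members had r above 0.5 and 13 had r below 0, and BUB1 (−0.74) and TK1 (−0.64) lay farthest from it. UBE2C, near 1 FPKM in RPMI-8226, lowers the members' mean in that line, where BUB1 and TK1 were highest. In RPMI-8226 WT the mean over members was 5.38 and 5.34 with UBE2C and 5.49 and 5.45 without it. These correlations were not computed without UBE2C. The genes outside the list with a mean of at least 5 FPKM that lay closest to the members' mean over these 9 groups were DMAC2 (r = 0.965), ZGRF1 (0.964), POLL (0.962), CUTC (0.961) and CHMP1A (0.959). They were picked as the highest of all such genes over only 9 groups, so high values follow from the pick. The mean they match also holds UBE2C. In the RefSeq annotation 8 members overlap another listed gene (CCNE2, MCM7, TYMS, CCNA2, CDC25C, PLK1, BUB1B and KIF20A), and their values are less certain where fragments could be assigned to either.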

How the data were processed

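RNA of 20 libraries (10 groups of 2) from flash-frozen pellets was sequenced on BGISEQ-500 at BGI. The deposited table holds FPKM per gene with 2 decimals, made by the authors; the submitters' processing notes name HISAT2 2.0.4, Bowtie2 2.2.5 and RSEM 1.2.12, and the genome build is not given in the sources used here. Without counts the depth is unknown, and no interval on counts is given.

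The 40 members and the other gene lists were chosen with earlier results of these data known. Genes that averaged 1 FPKM or more in any group (13089 of 18305) were fitted on log2(FPKM + 1) with limma 3.58.1 in R 4.3.3, as a group-mean model over all 20 libraries with a mean-variance trend and 10 residual degrees of freedom; fold changes on this scale understate those of low genes. P-values were adjusted by Benjamini-Hochberg over all tested genes, with calls under 0.05. An exact permutation test of 2 against 2 libraries cannot go below 0.33. The fit was tested on simulated data.

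Members named with values were, in each comparison, up to 5 past the test in each direction by size, the 5 lowest adjusted p in each F test, and always MKI67, PCNA, CCNB1 and MCM2; up to 2 in each direction were drawn from each other list, and the 5 best correlated other genes. Further members, the neighbours of members, the search around UBE2C and the replicate gaps were added after values were seen. Alternatives were pseudocounts of 0.1 and 0.01 FPKM, a filter of 5 FPKM or none, equal sums per library, quantile normalization, no trend, a replicate block, no libraries labelled AMO1 CfzR, and each library left out. RefSeq (GRCh38.p14) gave gene order, overlaps and promoter sequences, with 18261 of 18305 genes matched by gene ID; protein motifs were not searched. Summaries and plots used Python 3.11.15, pandas 2.3.3, numpy 2.4.6 and matplotlib 3.10.9.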

Additional observations from a re-analysis of the deposited data

Results flagged for a closer look

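The size of the bortezomib-resistance effect differed between the 4 lines for 23 of the 40 members when that difference was itself tested (moderated F test, limma), where 71.1% of all tested genes passed. In order of adjusted p these were MCM6 (2.2e-06), CDC25B (5.4e-05), E2F1 (6.6e-05), MCM7 (8.3e-05), CDK2 (1.4e-04), CDC6 (2.8e-04), RRM2 (4.9e-04), CCNE1 (8.9e-04), AURKB (9.6e-04), BUB1 (0.00143), RRM1 (0.00164) and CCNB1 (0.00182). They were followed by CDC25A (0.00637), CCNE2 (0.00867), E2F2 (0.0126), UBE2C (0.0130), KIF11 (0.0215), MCM3 (0.0257), CDK1 (0.0293), MCM4 (0.0303), CCNA2 (0.0324), TK1 (0.0353) and AURKA (0.0432). For TK1 the direction was the same in all 4 lines and the sizes differed, while for MCM6 the direction differed between RPMI-8226 and the other lines. Within L363, the difference between the carfilzomib-resistant and the bortezomib-resistant cells passed for TK1 (adjusted p = 0.00622).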

How the results depend on the processing

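Over 125 gene results and 1705 alternative values, 1529 kept direction and side of the threshold, 171 were no longer past it, 5 were newly past it and 0 turned direction. The count of members past the test in L363 BtzR (3) was 1 with equal sums per library and 1 with quantile normalization. In L363 CfzR (1) it was 0 with a pseudocount of 0.01 FPKM, 0 without a filter and 2 with the replicate block. In ARH-77 BtzR (7) it was 11 with equal sums, 4 with quantile normalization, 4 without the trend and 4 without the 2 libraries labelled AMO1 CfzR. Between the libraries labelled AMO1 CfzR and L363 WT (2) it was 1 with either smaller pseudocount, without a filter, with equal sums, with quantile normalization and without the trend, and with equal sums or quantile normalization the split was 0 higher and 1 lower. The cause of these changes was not tested. With single libraries left out the counts ranged from 14 to 17 in AMO1 BtzR, 1 to 2 in L363 BtzR, 0 to 0 in L363 CfzR, 6 to 15 in RPMI-8226 BtzR and 2 to 13 in ARH-77 BtzR. They ranged from 19 to 20 and 0 to 1 for the libraries labelled AMO1 CfzR against AMO1 WT and L363 WT, 0 to 1 between the L363 drugs, 21 to 27 for ARH-77 WT, and 17 to 28 and 35 to 37 in the F tests of the BtzR effect and of the WT lines. A left-out library leaves its group with 1 library, which is then assumed to vary like the other groups. Same-numbered libraries correlated in their deviations at −0.00554 in AMO1 BtzR and at 0.194, 0.189, 0.245, 0.221 and 0.12 in L363 BtzR, L363 CfzR, RPMI-8226 BtzR, ARH-77 BtzR and the libraries labelled AMO1 CfzR against AMO1 WT; with 2 pairs each, the numbers do not establish a pairing. With the replicate block the counts were 22, 4, 2, 16, 9 and 27 in the same order as here, 3 against L363 WT, 1 between the L363 drugs, 29 for ARH-77 WT, and 28 and 38 in the F tests. Depth is unknown, and 2 libraries a group limit every comparison.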
